A study of Mus musculus with 4 samples.

Results

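The cytokine receptors built around the shared chain gp130, and the kinases and transcription factor that carry their signal, were examined in single nuclei of the mouse brain after stroke. The genes were taken by symbol from the count files: Il6ra, Cntfr, Osmr, Lifr, Il6st, Jak1, Jak2, Stat3 and Socs3. All 9 were found among the 46983 genes counted, and each was followed across cell classes defined by marker genes and across 4 libraries. As background, gp130 is the product of Il6st and joins ligand-specific partners when a cytokine of the interleukin 6 family binds. Il6ra and Cntfr bind interleukin 6 and ciliary neurotrophic factor without signalling themselves, whereas Lifr and Osmr pair with gp130 and signal. The kinases Jak1 and Jak2 sit on these chains and phosphorylate Stat3, which then enters the nucleus and induces its targets. One of these targets is Socs3, which binds gp130 and shuts the signal off. In the injured brain this route is best known from reactive astrocytes, where Stat3 drives the filament gene Gfap.

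Each of the 4 groups held 1 library of single nuclei from male C57Black/6 mice aged 3 months, made from 3 hemispheres that were pooled during preparation. The groups were sham control and days 1, 3 and 7 after permanent middle cerebral artery occlusion (MCAO), in which the vessel is coagulated and cut so that a small infarct forms in the parietal cortex. A hemisphere holds both infarct and uninjured tissue, so each value averages nuclei near the lesion and far from it. With 1 library per group there is no replicate check on any difference between days, no p-value was computed, and all intervals below are 95% intervals that cover counting error only. The label of the control leaves its tissue unclear: a protocol note names intact cortex, the series design names forebrain hemispheres for every time point, and the sham library held 343 nuclei like striatal projection neurons. The libraries labelled day 3 and day 7 may also carry exchanged labels. The nuclei per library line up with the published breakdown only after an exchange of that pair, and which labels are right cannot be told from these files. Days are given here as deposited.

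The libraries held 23285489 to 42963698 unique molecular identifiers (UMIs), and 7800 nuclei were kept, 1018 to 3092 per library. No more than 3 called barcodes were shared between any pair of libraries. Clustering gave 33 clusters, of which 5 stayed unnamed, and classes are called astrocyte-like and so on because their names rest on RNA markers alone. Of the classes, 8 held at least 20 nuclei in every library, 4 glial and 4 neuronal, and the ranges of neuronal classes below are over those 4. The markers fitted the names: Aqp4, the astrocyte water channel, stood at 153 to 485 UMIs per 1000000 UMIs (CPM) in astrocyte-like nuclei and at 5.07 to 11.99 CPM in all others. Free RNA reached every droplet, and as an upper estimate it gave 29.8% to 53.0% of the UMIs of microglia-like nuclei, 18.5% to 32.4% in astrocyte-like nuclei and 5.71% to 8.45% in glutamatergic neuron-like nuclei. Levels are therefore set beside the level that free RNA alone could give. Nuclei were deepest on day 1 (median 11029.5 UMIs, against 5514 to 7029.5 in the other libraries), so shares of nuclei are also given after each nucleus was thinned to 1000 UMIs.

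Socs3 in microglia-like nuclei and Osmr in astrocyte-like nuclei lay above sham control after MCAO, and other members also differed from it in glial nuclei. The promoters of Socs3 and Osmr are shown so that the response can be read beside its sequence, without a ranking of members. Both are RefSeq windows on GRCm38.p6, from 250 bases before the gene start to 50 bases after it by RefSeq, and they are printed 5′ to 3′ on the minus strand, on which both genes lie. Socs3 is at chr11:117969317-117969616 and Osmr at chr15:6874264-6874563. Capitals mark a match to TTCNNNGAA, the letters of the element that activated STAT proteins bind, searched on both strands, where it reads the same.

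Socs3: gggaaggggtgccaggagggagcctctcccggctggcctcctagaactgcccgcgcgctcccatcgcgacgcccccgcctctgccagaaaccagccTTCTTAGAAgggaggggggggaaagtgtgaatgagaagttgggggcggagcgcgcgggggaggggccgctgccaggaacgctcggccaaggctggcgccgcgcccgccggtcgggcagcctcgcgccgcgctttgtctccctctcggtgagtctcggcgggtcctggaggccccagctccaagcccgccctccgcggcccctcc

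Osmr: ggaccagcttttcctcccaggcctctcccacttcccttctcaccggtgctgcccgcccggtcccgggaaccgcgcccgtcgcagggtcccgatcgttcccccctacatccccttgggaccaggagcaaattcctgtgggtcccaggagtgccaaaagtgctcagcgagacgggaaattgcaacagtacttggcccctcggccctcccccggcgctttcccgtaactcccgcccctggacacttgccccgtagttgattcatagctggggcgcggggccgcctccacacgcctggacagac

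The Socs3 window held 1 match, TTCTTAGAA, which began 154 bases before the RefSeq gene start. Windows were at hand for all 9 members, 15 windows in all, and the Socs3 window was the 1 that held these letters. Over all 32851 promoters 8.298% held them, so a match in 1 of 15 windows is near the background. A match is a string of letters and not a bound site, and the lack of one says nothing about what binds outside the window. On GRCm38 the genes spanned, in GENCODE vM21, 11:117966079-117970047 for Socs3, 11:100885098-100939540 for Stat3, 15:6813577-6874969 for Osmr, 15:7090614-7197489 for Lifr, 13:112464070-112510086 for Il6st, 3:89864059-89913196 for Il6ra, 4:41657498-41697089 for Cntfr, 4:101152367-101265282 for Jak1 and 19:29251828-29313080 for Jak2. GENCODE places the outermost starts of Socs3 and Osmr further upstream, so both printed windows lie inside these spans. Stat3 overlapped Stat5a by 72 bases on the opposite strand, Il6ra overlapped the antisense gene Gm42809 by 281 bases, and Jak1 overlapped Gm24468 by 104 and Raver2 by 4 bases, also on the opposite strand. Whether counting used strand is not given in the sources used here, so reads of these stretches could not be assigned to one gene with certainty. Jak1 also overlapped a pseudogene on its own strand (Gm12785) by 172 bases, where strand cannot separate them.

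Among the chains that bind the ligand, Il6ra was a microglial gene in this brain. In microglia-like nuclei Il6ra stood at 194 CPM in sham control (interval 148 to 250), 176 CPM on day 1, 251 CPM on day 3 and 255 CPM on day 7, at least 46 UMIs in each library. No other of the 8 classes overlapped that range, and the next, astrocyte-like nuclei, reached 5.23 to 24.8 CPM. Free RNA alone could give 2.59 to 4.59 CPM of Il6ra in microglia-like nuclei. The share of microglia-like nuclei with an Il6ra UMI ran from 41.9% to 62.2%, against 0.775% to 2.15% in the deeper GABAergic interneuron-like nuclei. Against sham control, Il6ra in microglia-like nuclei differed by 0.909-fold on day 1, 1.30-fold on day 3 and 1.32-fold on day 7, and all 3 intervals included 1. The direction on the later days turned when nuclei were thinned, to log2 ratios of -0.31 and -0.24. Pooled over libraries, Il6ra was also found at 101 CPM in ependymal cell-like nuclei (46 UMIs), 86.4 CPM in choroid plexus cell-like nuclei (17 UMIs), 56.0 CPM in vascular leptomeningeal cell-like nuclei (15 UMIs) and 45.2 CPM in endothelial cell-like nuclei (33 UMIs). Ependymal and choroid plexus cells line the ventricles and make cerebrospinal fluid. In astrocyte-like nuclei Il6ra gave 4, 3, 14 and 11 UMIs in sham control and on days 1, 3 and 7. The day 7 level of 24.8 CPM was 4.75 times that of sham control (1.41 to 20.4), on too few UMIs to enter the counts below. The summed microglia markers of the same astrocyte-like nuclei were 979, 1028, 1591 and 1678 CPM, and their part in these Il6ra values was not tested.

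Cntfr, in contrast, was highest in astrocyte-like nuclei. Its level there was 90.2 CPM in sham control (69 UMIs), 56.0 CPM on day 1 (29 UMIs), 101 CPM on day 3 (88 UMIs) and 88.0 CPM on day 7 (39 UMIs). Day 1 stood below the other 3 libraries, and its ratio to sham control was 0.621 (0.388 to 0.972). Oligodendrocyte-like nuclei came next at 33.2 to 48.9 CPM, below the astrocyte-like range, and neuronal classes held 10.1 to 37.4 CPM. In microglia-like nuclei Cntfr reached 4.88 to 26.8 CPM on 2 to 7 UMIs, while free RNA alone could give 11.6 to 22.5 CPM, so those UMIs could not be told apart from free RNA.

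**Figure D1:**
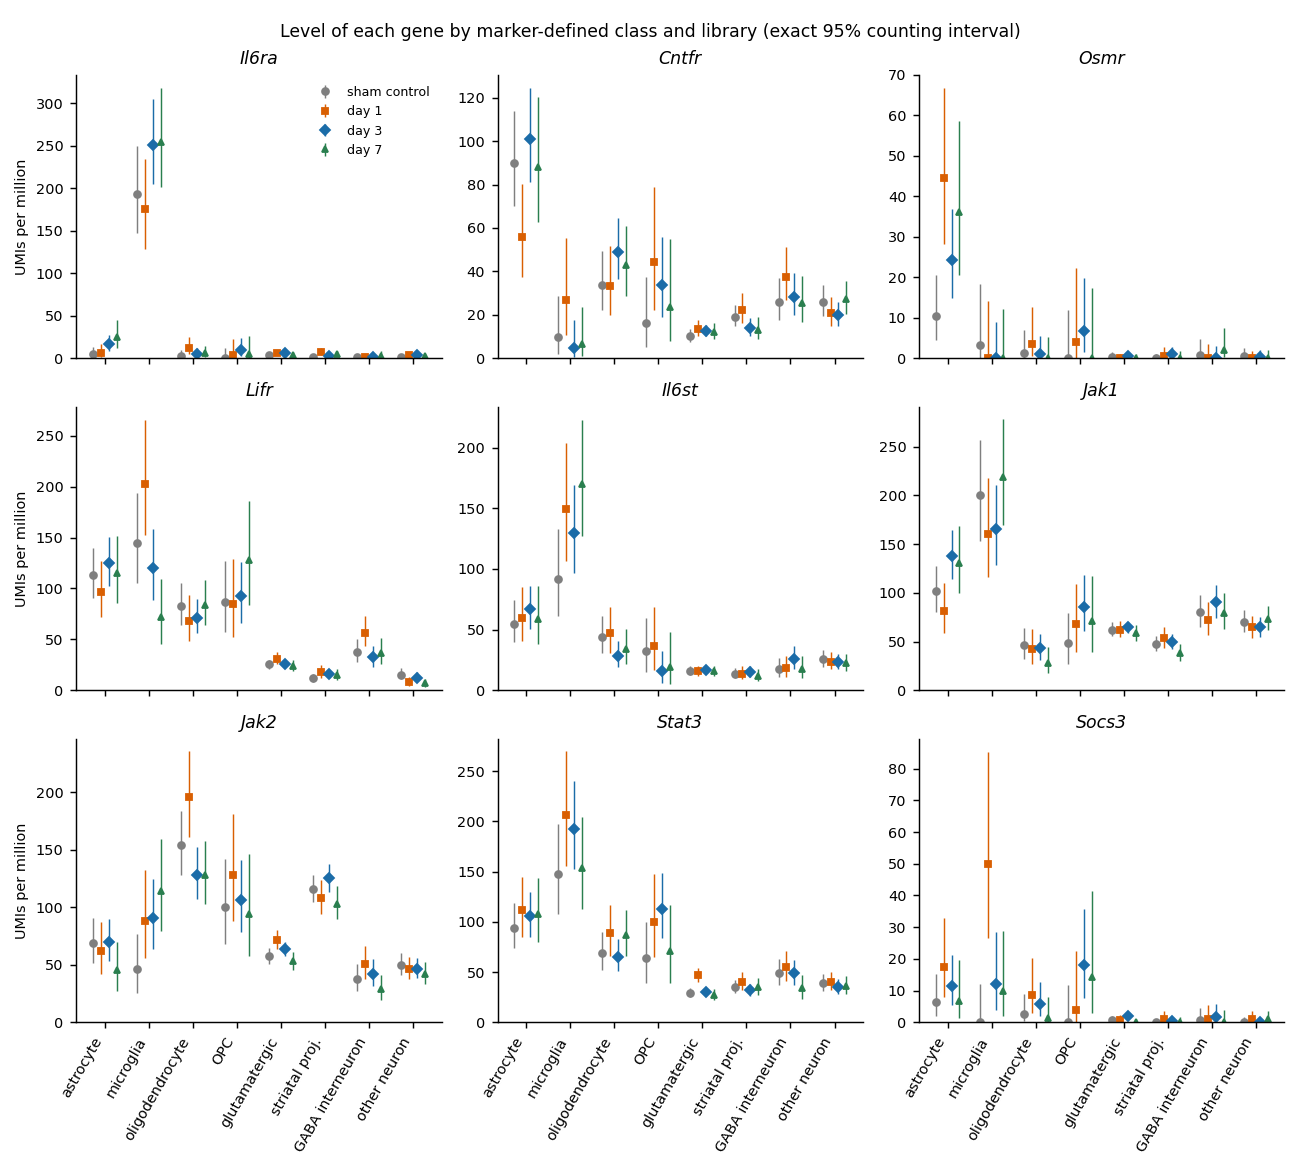
Level of each of the 9 genes (vertical axis, CPM of the class sum) in 8 marker-defined classes (horizontal axis, OPC for oligodendrocyte precursor cell-like) in the libraries of sham control (grey), day 1 (orange), day 3 (blue) and day 7 (green), with exact 95% counting intervals as bars. Il6ra stands out in microglia-like nuclei at 176 to 255 CPM, Osmr in astrocyte-like nuclei at 10.5 to 44.4 CPM and Jak2 in oligodendrocyte-like nuclei at 128 to 196 CPM.

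Osmr, the oncostatin M receptor chain, had the highest ratios to sham control in astrocyte-like nuclei among the members with at least 20 UMIs in the pair of sums. Its level was 10.5 CPM in sham control (8 UMIs, 4.51 to 20.6), 44.4 CPM on day 1 (23 UMIs, 28.2 to 66.7), 24.1 CPM on day 3 (21 UMIs, 14.9 to 36.9) and 36.1 CPM on day 7 (16 UMIs, 20.6 to 58.6). All 3 libraries after MCAO lay above sham control, and day 1 was the highest, with an interval that overlapped those of days 3 and 7. The ratios to sham control were 4.25 on day 1 (1.84 to 10.99), 2.31 on day 3 (0.982 to 6.02) and 3.45 on day 7 (1.39 to 9.32), so the day 3 interval included 1. Free RNA alone could give 0.773 to 1.94 CPM of Osmr in these nuclei, below every library. Osmr was found in 5 of 153 astrocyte-like nuclei in sham control, 12 of 63 on day 1, 17 of 224 on day 3 and 6 of 72 on day 7, or 3.27%, 19.0%, 7.59% and 8.33%. After thinning the shares were 1.31%, 6.35%, 3.125% and 2.78%, in 2, 4, 7 and 2 nuclei. Glutamatergic neuron-like nuclei, with median depths of 8884 to 15631 UMIs against 2989 to 5459 in astrocyte-like nuclei, showed Osmr in at most 0.434% of nuclei in any library. Of the day 1 UMIs, 34.8% came from a single nucleus, and without the top nucleus of each library the levels were 7.92, 30.6, 22.2 and 25.6 CPM.

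Pooled over libraries, vascular nuclei carried more Osmr than astrocyte-like nuclei. Endothelial cell-like nuclei held 117 CPM in sham control (18 UMIs), 61.5 CPM on day 1 (2 UMIs in 6 nuclei), 96.7 CPM on day 3 (40 UMIs) and 116 CPM on day 7 (15 UMIs). Their ratio to sham control was 0.830 on day 3 (0.465 to 1.54) and 0.993 on day 7 (0.466 to 2.09), and whether it differed from that of astrocyte-like nuclei was not tested. Pericyte and smooth muscle cell-like nuclei, the contractile cells of the vessel wall, numbered 2 to 21 per library. They held 34.6 CPM of Osmr in sham control (1 UMI, 0.877 to 193), 703 CPM on day 1 (9 UMIs, 321 to 1335), 230 CPM on day 3 (11 UMIs, 115 to 412) and no UMI on day 7. The day 1 level lay above that of sham control with intervals that did not overlap, in 8 and 13 nuclei. Vascular leptomeningeal cell-like nuclei gave 1, 3, 10 and 1 UMIs, or 18.8, 97.9, 80.0 and 17.0 CPM, with intervals that overlapped. Microglia-like nuclei gave 1 Osmr UMI in 92 sham control nuclei and none in the other 3 libraries. At 3 UMIs, the level that a 0 allows was 11.5 CPM on day 1, 7.32 CPM on day 3 and 9.81 CPM on day 7, and the upper ends of the exact intervals were 14.1, 9.01 and 12.1 CPM. All neuronal classes stayed at or below 2.05 CPM.

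Lifr, the receptor chain for leukemia inhibitory factor, was shared by glial classes. Astrocyte-like nuclei held 114 CPM in sham control, 96.6 CPM on day 1, 125 CPM on day 3 and 115 CPM on day 7, with 50 to 109 UMIs. These 4 levels lay close together, and all 3 ratios to sham control had intervals that included 1. Oligodendrocyte precursor cell-like nuclei spanned 84.3 to 128 CPM and oligodendrocyte-like nuclei 68.2 to 84.0 CPM. In microglia-like nuclei Lifr moved more, at 145 CPM in sham control (44 UMIs), 203 CPM on day 1 (53 UMIs), 120 CPM on day 3 (49 UMIs) and 71.9 CPM on day 7 (22 UMIs). Day 7 was the lowest, at 0.498 times sham control (0.284 to 0.848), and day 1 the highest, at 1.40 times (0.924 to 2.14). In neurons Lifr ran from 6.68 CPM in other neuron-like nuclei to 56.6 CPM in GABAergic interneuron-like nuclei. Among the interneuron-like nuclei it was concentrated in the cluster whose leading genes included Kcnmb2, Fign and Pvalb, with 91.7 CPM in sham control, 125 CPM on day 1, 65.7 CPM on day 3 and 124 CPM on day 7 over 7 to 19 nuclei per library. Other neuron-like nuclei held 15.5 CPM in sham control (34 UMIs), 7.89 CPM on day 1 (16 UMIs), 12.5 CPM on day 3 (33 UMIs) and 6.68 CPM on day 7 (13 UMIs). Their ratios were 0.510 on day 1 (0.263 to 0.950) and 0.432 on day 7 (0.209 to 0.841), while free RNA alone could give 4.17 to 5.57 CPM.

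Il6st, which encodes gp130 itself, was highest in microglia-like nuclei among these classes. Its level there was 92.0 CPM in sham control (28 UMIs), 149 CPM on day 1 (39 UMIs), 129 CPM on day 3 (53 UMIs) and 170 CPM on day 7 (52 UMIs). Sham control was the lowest of the 4 libraries, and the ratios were 1.62 on day 1 (0.974 to 2.74), 1.41 on day 3 (0.874 to 2.31) and 1.85 on day 7 (1.15 to 3.04). Astrocyte-like nuclei held a steady 54.9 to 66.6 CPM, and their ratios of 1.07 to 1.21 all had intervals that included 1. Vascular nuclei carried Il6st at 130 CPM (endothelial cell-like) and 157 CPM (vascular leptomeningeal cell-like) over all libraries. In oligodendrocyte-like nuclei Il6st was 28.4 to 47.2 CPM, and in neuronal classes 11.6 to 25.9 CPM. Of the astrocyte-like nuclei with an Osmr UMI, 2 of 5, 3 of 12, 8 of 17 and 3 of 6 also held an Il6st UMI in sham control and on days 1, 3 and 7. Those Osmr nuclei were deeper than their class, at medians of 5071 to 13990 UMIs against 2989 to 5459, and the part of depth in this co-detection was not tested.

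**Figure D2:**
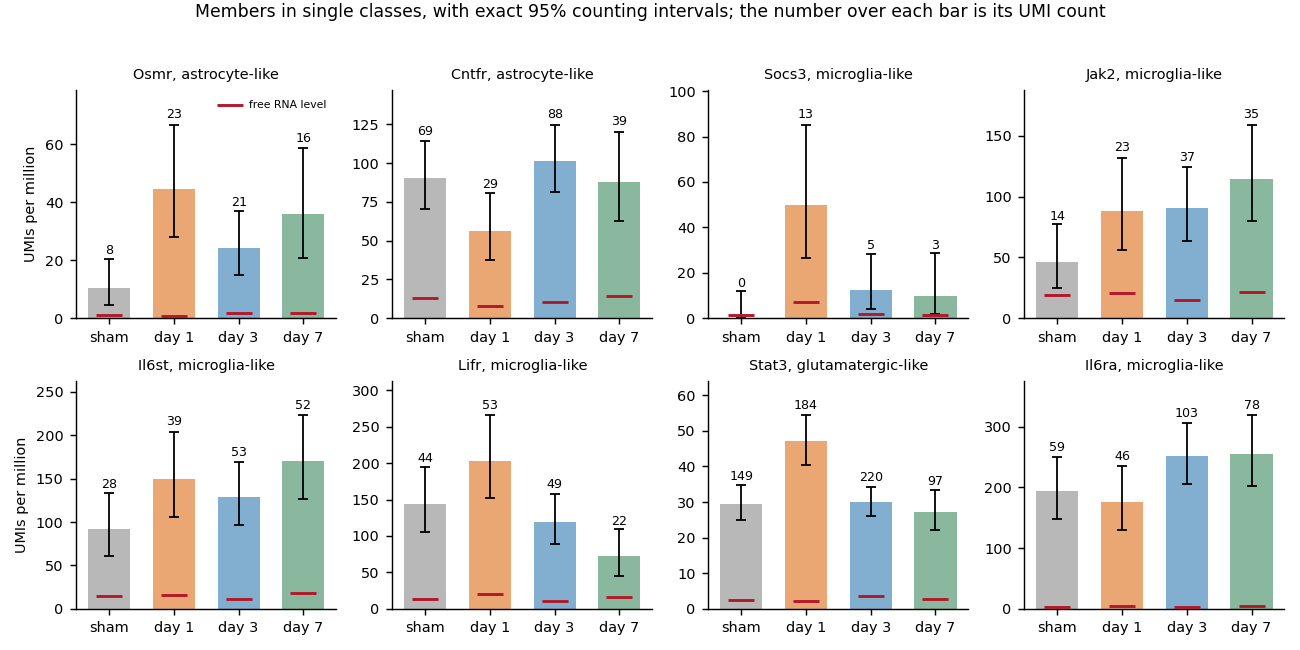
Levels (bars, CPM of the class sum) of members in single classes in the libraries of sham control and days 1, 3 and 7, with exact 95% counting intervals, the UMI count above each bar and the level that free RNA alone could give as a red line. Osmr in astrocyte-like nuclei lies above sham control in all 3 libraries after MCAO, Socs3 in microglia-like nuclei goes from 0 to 13 UMIs on day 1, and Lifr in microglia-like nuclei is lowest on day 7 at 22 UMIs.

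The kinases divided by class. Jak1 was highest in microglia-like nuclei at 161 to 219 CPM, and oligodendrocyte-like nuclei had the lowest levels, 28.5 to 46.3 CPM. Jak2 was highest in oligodendrocyte-like nuclei, at 154 CPM in sham control, 196 CPM on day 1, 128 CPM on day 3 and 128 CPM on day 7, on 90 to 131 UMIs. That range did not overlap the class with the next median, striatal projection neuron-like nuclei at 103 to 125 CPM, but it met that of oligodendrocyte precursor cell-like nuclei, which reached 128 CPM on day 1. Jak1 in astrocyte-like nuclei was 102, 81.2, 138 and 131 CPM in sham control and on days 1, 3 and 7. The day 3 ratio of 1.35 (1.01 to 1.82) stayed within 1.5-fold, and after thinning its direction turned, to a log2 ratio of -0.13.

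Jak2 in microglia-like nuclei was lowest in sham control, at 46.0 CPM (14 UMIs), against 88.1 CPM on day 1 (23 UMIs), 90.3 CPM on day 3 (37 UMIs) and 114 CPM on day 7 (35 UMIs). The ratios were 1.92 (0.945 to 4.03), 1.96 (1.04 to 3.93) and 2.49 (1.30 to 5.00). A single sham control nucleus held 35.7% of the 14 UMIs there, and free RNA alone could give 19.3 CPM in that library. After thinning the day 1 log2 ratio was -0.29. In astrocyte-like nuclei Jak2 was 69.3, 61.8, 70.1 and 45.1 CPM, and the day 7 ratio of 0.651 had an interval that included 1 (0.369 to 1.11). Its direction turned when nuclei were averaged or thinned, to log2 ratios of 0.07 and 0.28.

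Stat3 itself was a glial gene first. Microglia-like nuclei held 148 CPM in sham control (45 UMIs), 207 CPM on day 1 (54 UMIs), 193 CPM on day 3 (79 UMIs) and 154 CPM on day 7 (47 UMIs). All 4 libraries lay above the range of astrocyte-like nuclei, which were at 94.1, 112, 106 and 108 CPM. Neither class passed 1.5-fold on any day: the astrocyte-like ratios were 1.12 to 1.19 and the microglia-like ratios 1.40 on day 1 (0.924 to 2.13), 1.30 on day 3 and 1.04 on day 7. Endothelial cell-like nuclei, outside the 8 classes, held 129 CPM over all libraries. Oligodendrocyte-like nuclei stood at 65.5 to 89.1 CPM and neuronal classes at 27.3 to 54.6 CPM.

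In glutamatergic neuron-like nuclei, which gave 97 to 220 Stat3 UMIs per library, day 1 stood apart. The level was 29.6 CPM in sham control (149 UMIs, 25.0 to 34.7), 47.0 CPM on day 1 (184 UMIs, 40.5 to 54.3), 30.0 CPM on day 3 (220 UMIs, 26.2 to 34.3) and 27.3 CPM on day 7 (97 UMIs, 22.1 to 33.3). The day 1 interval lay clear of the other 3, and its ratio to sham control was 1.59 (1.27 to 1.99). The day 1 value was above sham control in 5 of the 6 glutamatergic clusters, and no nucleus held more than 5.43% of its UMIs in any library. Free RNA alone could give 2.20 to 3.60 CPM. The share of these nuclei with a Stat3 UMI was 23.9% in sham control and 37.2% on day 1 at median depths of 9616 and 15631 UMIs, and 1.95% and 5.83% after thinning. In oligodendrocyte precursor cell-like nuclei Stat3 was 64.5 CPM in sham control (20 UMIs), 100 CPM on day 1 (25 UMIs), 113 CPM on day 3 (50 UMIs) and 70.9 CPM on day 7 (15 UMIs). The day 3 ratio there was 1.75 (1.03 to 3.11).

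Socs3, the feedback inhibitor, was scarce. Among the classes large enough to be counted, its clearest signal came from microglia-like nuclei on day 1. Those nuclei gave 0 UMIs in 92 nuclei of sham control, 13 UMIs in 10 of 45 nuclei on day 1 (49.8 CPM, 26.5 to 85.1), 5 UMIs on day 3 (12.2 CPM) and 3 UMIs on day 7 (9.81 CPM). Against the level that 3 UMIs would give in sham control, day 1 was at least 5.05-fold higher, on a count of UMIs below the minimum of 20 used for the counts below. No single nucleus held more than 15.4% of the day 1 UMIs. Free RNA also held more Socs3 on day 1, 13.7 CPM against 3.46 CPM in sham control, and as an upper estimate it alone could give 7.26 CPM in microglia-like nuclei. The share of microglia-like nuclei with a Socs3 UMI on day 1 was 22.2% at a median depth of 3622 UMIs, against 0.897% of glutamatergic neuron-like nuclei at 15631 UMIs. After thinning it was 11.1%, 5 of 45 nuclei. Of the 10 nuclei with Socs3 on day 1, 7 also held a Stat3 UMI, against 24 of 45 in the class, and on day 3 it was 1 of 5, against 60 of 186. The nuclei with Socs3 were deeper than the class, at medians of 4205.5 against 3622 UMIs on day 1 and 4774 against 1725.5 UMIs on day 3, and the part of depth was not tested.

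Socs3 in astrocyte-like nuclei gave 5, 9, 10 and 3 UMIs in sham control and on days 1, 3 and 7, or 6.53, 17.4, 11.5 and 6.77 CPM. The day 1 ratio of 2.66 had an interval from 0.801 to 10.1, so no difference could be detected at this depth. Oligodendrocyte precursor cell-like nuclei gave 0, 1, 8 and 3 UMIs. Day 3 was at least 1.87-fold above the level of 3 UMIs in sham control, on 8 UMIs in 5 nuclei. Neuronal classes stayed at or below 1.91 CPM in every library. Some classes with few nuclei also held Socs3 on day 1, on 1 to 4 UMIs each. Endothelial cell-like nuclei held 92.2 CPM (3 UMIs in 6 nuclei) and vascular leptomeningeal cell-like nuclei 97.95 CPM (3 UMIs in 3 nuclei). Pericyte and smooth muscle cell-like nuclei held 78.1 CPM (1 UMI in 8 nuclei) and ependymal cell-like nuclei 35.7 CPM (4 UMIs in 7 nuclei).

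Counted over the 8 classes and 3 days, 146 values of a member in a class and library had at least 20 UMIs together with sham control. Of these, 17 were at least 1.5-fold above sham control and 7 at least 1.5-fold below it. Over all genes with enough UMIs, 9.21% of such values were above and 10.4% below, and 4.92% to 23.8% were above and 5.46% to 17.3% below in the same classes and days. For the members the counting interval excluded 1 for 9 of the 17 and 4 of the 7. No share over all genes is given for that count, so it is not read as a result about the members. In astrocyte-like nuclei 1 of 7 members (Osmr) was above on each day, where 10.0%, 10.6% and 11.3% of all genes were, and 1, 0 and 1 were below (Cntfr on day 1, Jak2 on day 7), where 16.9%, 12.7% and 17.3% of all genes were. Osmr had 8 UMIs there in sham control. On days 1 and 7 it could reach the minimum of 20 UMIs only at a level already past 1.5-fold. Its call on those days was thus fixed by the minimum. In microglia-like nuclei 2 of 6 members were above on day 1, 1 on day 3 and 2 on day 7, against 19.3%, 23.8% and 17.5% of all genes, and Lifr was below on day 7, against 14.5% of all genes. Of 6 or 7 members tested, 1 or 2 is near these background shares. In glutamatergic neuron-like nuclei 2 of 7 members (Stat3 and Il6ra) were above on day 1 and 1 (Il6ra) on day 3, where 9.06% and 4.92% of all genes were. On day 7 no member was above or below, against 6.23% and 8.51% of all genes. Il6ra was at 3.57 CPM there in sham control, 5.62 CPM on day 1 and 6.55 CPM on day 3. In oligodendrocyte precursor cell-like nuclei 1 of 4 members (Stat3) was above on day 1, against 15.9% of all genes, and 3 of 5 (Stat3, Cntfr and Jak1) on day 3, against 16.5%, where the interval excluded 1 for Stat3 alone. In striatal projection neuron-like nuclei 2 of 7 members (Lifr and Il6ra) were above on day 1, against 10.0% of all genes, and the Il6ra ratio of 3.89 (1.40 to 12.4) rested on 6 and 14 UMIs. Those UMIs just reached the minimum of 20, so Il6ra too could be tested there only where it was high. No member was below there on day 1, against 5.46%, and none passed 1.5-fold on days 3 and 7, against 5.48% and 5.98% of all genes above and 7.15% and 8.77% below. In oligodendrocyte-like nuclei none of 6 members was above on days 1, 3 and 7, against 10.4%, 10.8% and 7.78% of all genes, and 1 of 6 was below on day 3 (Il6st) and 1 on day 7 (Jak1), against 8.62% and 15.3% of all genes. In other neuron-like nuclei Lifr was the 1 of 6 members below on days 1 and 7, against 7.67% and 10.3% of all genes, and none was above on those days, against 6.04% and 5.85%. No member of 6 passed 1.5-fold in GABAergic interneuron-like nuclei on days 1, 3 and 7, where 8.60%, 7.43% and 6.66% of all genes were above, 8.45% and 9.08% below on days 1 and 3, and 1263 of 9741 genes below on day 7.

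The median log2 ratio of the tested members in microglia-like nuclei was 0.49, 0.38 and 0.26 on days 1, 3 and 7, against 0.08, 0.16 and 0.07 over all genes with enough UMIs. In astrocyte-like nuclei it was -0.16, 0.17 and 0.10, against -0.07, -0.01 and -0.06. In glutamatergic neuron-like nuclei it was 0.31 on day 1, against 0.04, and 0.05 and -0.09 on days 3 and 7, against -0.04 and -0.06. In oligodendrocyte precursor cell-like nuclei it was 0.43, 0.81 and 0.34 over 4, 5 and 4 members, against 0.05, 0.05 and -0.03. The medians of the other 4 classes lay between -0.20 and 0.29, and those of all genes there between -0.09 and 0.04. Free RNA gave at most 45.3%, 53.0%, 29.8% and 47.1% of the UMIs of microglia-like nuclei in sham control and on days 1, 3 and 7. The microglia markers there moved too, with Inpp5d at 1274, 1107, 1814 and 1340 CPM and Csf1r at 473, 317.8, 754.3 and 480.5 CPM. The part of these shifts in the microglia-like medians was not tested.

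**Figure D3:**
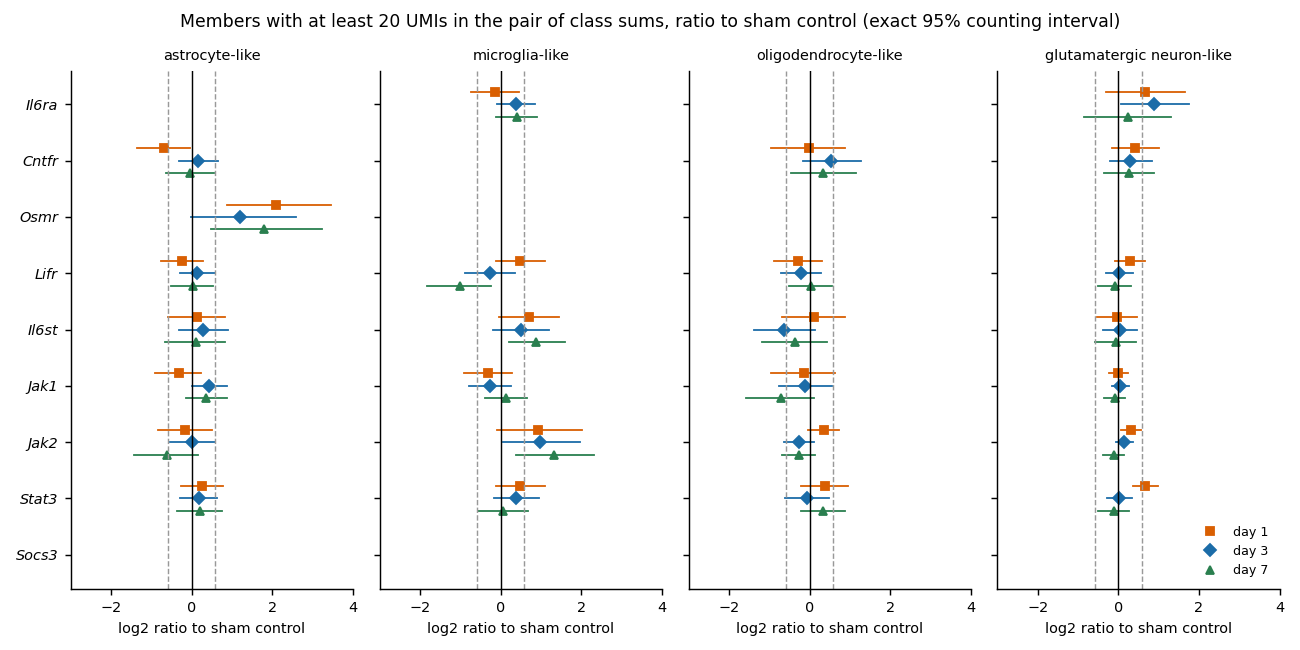
Log2 ratio of each library after MCAO to sham control (horizontal axis) for members with at least 20 UMIs in the pair of class sums, with exact 95% counting intervals, in 4 classes, where dashed lines mark 1.5-fold. Osmr in astrocyte-like nuclei lies to the right on all 3 days (4.25-fold on day 1), Lifr in microglia-like nuclei lies to the left on day 7 (0.498-fold), and Socs3 has no point because its sums held too few UMIs.

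Markers of other cell types moved with the days in microglia-like nuclei. The summed level of the peripheral myeloid list was 98.5 CPM in sham control, 291 CPM on day 1, 796 CPM on day 3 and 412 CPM on day 7, with 7, 9, 11 and 10 of its 15 markers found. The summed astrocyte list in the same nuclei was 1104, 502, 918 and 1052 CPM, lowest on day 1, the lymphocyte list 145, 111, 65.9 and 55.6 CPM, highest in sham control, and the oligodendrocyte list 1994, 2252, 1924 and 2481 CPM. Of the macrophage markers in the peripheral myeloid list, Mrc1, F13a1 and Ms4a7 were found in all 4 libraries, Cd163 on days 3 and 7, and Lyve1 and Cd209f, which mark border macrophages, in none. A UMI of the peripheral myeloid list was held by 11 of 92 nuclei in sham control, 11 of 45 on day 1, 79 of 186 on day 3 and 27 of 96 on day 7. Without those nuclei Socs3 on day 1 was 53.8 CPM, and the day 7 log2 ratios were -1.28 for Lifr, 1.41 for Jak2 and 1.09 for Il6st, against -1.01, 1.31 and 0.89 with them. At these depths a nucleus without such a UMI can still be a myeloid nucleus, and the part of these markers in the microglia-like values was not tested. The class also held a small cluster with oligodendrocyte genes, with 8 of 92, 7 of 45, 9 of 186 and 6 of 96 nuclei in sham control and on days 1, 3 and 7. Without that cluster Socs3 gave 0, 12, 3 and 3 UMIs, or 53.9 CPM on day 1, and the day 7 log2 ratios were -0.84 for Lifr, 1.28 for Jak2 and 0.70 for Il6st. An unnamed cluster with 16, 26, 90 and 27 nuclei in sham control and on days 1, 3 and 7 scored highest for astrocyte markers. Its lead was too narrow for a name, so the astrocyte-like values leave it out. It held 4 Osmr UMIs on day 3, and 3 and 6 Socs3 UMIs on days 1 and 3. The astrocyte-like class was a single cluster. Its summed peripheral myeloid markers were 19.6, 17.4, 55.1 and 22.6 CPM in sham control and on days 1, 3 and 7, its lymphocyte markers 166, 203, 114 and 63.2 CPM, and its oligodendrocyte markers 690 to 1805 CPM, lowest on day 1, and the part of these markers in the astrocyte-like values was not tested.

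The ligands of these receptors were almost out of reach of these libraries. Of those on the list, Cntf had no UMI in any nucleus, and Il6 had 4, 3, 2 and 4 UMIs in sham control and on days 1, 3 and 7. Osm, the ligand of Osmr, had 1, 0, 4 and 2 UMIs, of which 5 were in microglia-like nuclei. Lif had 2, 2, 5 and 0 UMIs and Clcf1, a partner ligand for Cntfr, had 4, 8, 21 and 7. Ctf1 had 31, 21, 29 and 13 UMIs, of which 30 were in glutamatergic neuron-like nuclei. There it alone among the ligands had enough UMIs for a comparison, on day 3, at 0.573 times sham control (0.222 to 1.45). The counts were also low for Il11, with 7, 4, 6 and 3 UMIs, Il27, with 15, 9, 10 and 3, and Il31, with 1 UMI in all.

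Among the 7 other receptors on the list, Il31ra, which pairs with Osmr to bind interleukin 31, was lower than in sham control in the astrocyte-like nuclei of all 3 libraries after MCAO. It was 28.7 CPM in sham control (22 UMIs) and 5.80, 12.6 and 6.77 CPM on days 1, 3 and 7 (3, 11 and 3 UMIs), ratios of 0.202 (0.0386 to 0.671), 0.440 (0.192 to 0.946) and 0.235 (0.0451 to 0.784). Free RNA itself held Il31ra at 130 CPM in sham control and at 57.3, 39.2 and 25.4 CPM on days 1, 3 and 7. As an upper estimate it alone could give 42.1, 10.6, 10.3 and 7.96 CPM in astrocyte-like nuclei, at or near the measured levels in every library, so these UMIs could not be told apart from free RNA. In oligodendrocyte-like nuclei the day 3 and day 7 ratios were 0.406 (0.191 to 0.825) and 0.319 (0.116 to 0.758), and free RNA alone could give 27.2 of the 31.3 CPM of sham control, 10.7 of 12.7 CPM on day 3 and 3.88 of 9.97 CPM on day 7, so the UMIs of sham control and day 3 are read in the same way. In microglia-like nuclei Il10ra, the interleukin 10 receptor chain, was at 0.397 times sham control on day 1 (0.205 to 0.728), and its partner Il10rb at 2.60 times on day 3 (1.02 to 7.88).

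Of the other kinases and STATs, Stat2, which carries interferon signals, was 36.1 CPM in sham control (11 UMIs) and 147 CPM on day 7 (45 UMIs) in microglia-like nuclei, a ratio of 4.07 (2.07 to 8.73). That list had 1 of 3 tested genes above 1.5-fold on day 1, 1 of 4 on day 3 and 1 of 3 on day 7 in this class, beside 19.3%, 23.8% and 17.5% of all genes. None was below, beside 14.5%, 16.1% and 14.5% of all genes. The negative regulators gave no clear direction: of 10 tested in astrocyte-like nuclei 2 were above and 1 below on day 1, none moved past 1.5-fold on day 3 and 1 was below on day 7, beside 10.0%, 10.6% and 11.3% of all genes above and 16.9%, 12.7% and 17.3% below. Socs2 was above on day 1 at 3.70 times sham control (1.36 to 11.6, 6 and 15 UMIs, the former below the level of free RNA), and Socs6 was below at 0.429 times (0.180 to 0.924). In microglia-like nuclei 1 of 8 was above and 1 below on day 1, 2 and 1 of 11 on day 3 and 1 and 2 of 10 on day 7, where 14.5%, 16.1% and 14.5% of all genes were below, and no interval excluded 1.

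Genes known as Stat3 targets were examined as a list of 24, of which those with enough UMIs were compared. A target above sham control is said to stand over free RNA where the lower end of its counting interval in that library exceeded the level that free RNA alone could give. As that level is an upper estimate, other targets could not be told apart from free RNA, and their source was not tested. The shares of all genes were not filtered in this way. Nor were the counts of oligodendrocyte precursor cell-like, GABAergic interneuron-like and other neuron-like nuclei. In astrocyte-like nuclei 5 of 11 were at least 1.5-fold above sham control on day 1, 10 of 15 on day 3 and 5 of 10 on day 7, beside 10.0%, 10.6% and 11.3% of all genes. Below were 0, 0 and 1, beside 16.9%, 12.7% and 17.3% of all genes. Of those above, 4, 10 and 4 stood over free RNA, and Junb on days 1 and 7 did not. A gene with few UMIs in sham control could reach the minimum of 20 only where it was high after MCAO. This can raise the counts above. It held for Ccnd1 (5 and 25 UMIs) and Lcn2 (7 and 42 UMIs) on day 3, which were not tested on days 1 and 7. It also held for Cebpd on days 1 and 7, with 8 UMIs in sham control. Gfap was 170 CPM in sham control, 259 CPM on day 1, 655 CPM on day 3 and 372 CPM on day 7, ratios of 1.52 (1.19 to 1.96), 3.85 (3.18 to 4.70) and 2.19 (1.73 to 2.78), where free RNA alone could give 16.8 to 51.2 CPM. Its level was highest on day 3. That of Osmr in the same nuclei was highest on day 1, but its intervals overlapped between the days after MCAO, so its order of days was not resolved. The intermediate filament gene Vim reached 6.49 times sham control on day 3 (4.57 to 9.47) and 2.01 times on day 7 (1.26 to 3.24), at 306 and 94.7 CPM, while free RNA alone could give 72.2 and 35.9 CPM. Lcn2, a secreted protein of reactive astrocytes that binds iron carriers, stood at 5.27 times on day 3 (2.35 to 13.9), on 7 UMIs in sham control and 42 on day 3, against 2 on day 1 and none on day 7. Single nuclei held 85.7% of the sham control UMIs and 47.6% of those of day 3. The cell cycle gene Ccnd1 stood at 4.40 times on day 3 (1.65 to 14.7). The transcription factor gene Cebpd was above on every day, at 3.33 times (1.38 to 8.84), 3.85 times (1.75 to 9.60) and 4.32 times (1.82 to 11.3).

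In microglia-like nuclei 7 of 9 tested targets were above on day 1, 7 of 10 on day 3 and 4 of 6 on day 7, beside 19.3%, 23.8% and 17.5% of all genes. None was below, where 14.5%, 16.1% and 14.5% of all genes were. Of those above, 5, 5 and 4 stood over free RNA, while Vim and Junb on day 1 and Gfap and Vim on day 3 could not be told apart from it. Junb, an immediate-early transcription factor, stood at 7.58 times sham control on day 1 (2.63 to 29.9, from 4 to 26 UMIs) and 5.02 times on day 3 (1.75 to 19.7). Free RNA alone could give 76.3 of its 99.6 CPM on day 1 and 19.6 of 65.9 CPM on day 3, and in sham control 45.5 CPM against the 13.1 CPM measured, so the size of both ratios is uncertain. Bcl6, a transcriptional repressor, stood at 4.66 times on day 1 (1.70 to 15.9) and 3.78 times on day 7 (1.37 to 12.96), where free RNA alone could give 21.4 of 76.6 CPM and 16.2 of 62.1 CPM. Vim stood at 3.35 times on day 1 (1.45 to 8.67), with 78.3% of its UMIs in a single nucleus, and at 3.53 times on day 3 (1.62 to 8.76), and free RNA alone could give 60.4 of its 88.1 CPM, 82.1 of its 92.8 CPM and, in sham control, 50.1 CPM against 26.3 CPM measured. Gfap, an astrocyte gene, was at 6.44 times sham control in microglia-like nuclei on day 3 (1.97 to 33.2, 3 and 26 UMIs), at 3.97 times in oligodendrocyte-like nuclei (2.12 to 8.11) and at 3.37 times in glutamatergic neuron-like nuclei (2.04 to 5.84). Free RNA alone could give 58.2 of the 63.5 CPM in microglia-like nuclei, 53.1 of 59.7 CPM in oligodendrocyte-like nuclei and 16.5 CPM against 12.7 CPM in glutamatergic neuron-like nuclei. The Gfap values of these 3 classes therefore could not be told apart from free RNA either.

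In oligodendrocyte-like nuclei 2 of 8 targets were above on day 1, 2 of 8 on day 3 and 1 of 8 on day 7, beside 10.4%, 10.8% and 7.78% of all genes, and 1, 1 and 2 were below, beside 14.0%, 8.62% and 15.3%. Of those above, Bcl2l1 on day 1 was the 1 that stood over free RNA. Vim was above there at 3.49 times on day 1 (1.47 to 9.16) and 5.18 times on day 3 (2.45 to 12.6), and Junb was below at 0.284 times on day 7 (0.0692 to 0.882). Free RNA alone could give 23.2 CPM of Vim against 10.0 CPM measured in sham control, 24.3 CPM against 35.0 CPM on day 1 and 74.9 CPM against 51.8 CPM on day 3. It could give more Junb than was measured in each library. The interval of Vim on day 1 reached down to 21.3 CPM. Neither gene could thus be told apart from free RNA there, and the source of the Vim difference on day 1 was not tested. The survival gene Bcl2l1 was 509 CPM in sham control and 774 CPM on day 1, a ratio of 1.52 (1.33 to 1.74), far above the 18.4 CPM that free RNA could give. In glutamatergic neuron-like nuclei 2 of 14, 4 of 15 and 1 of 12 targets were above and 2, 3 and 5 below, beside 9.06%, 4.92% and 6.23% of all genes above and 5.83%, 6.35% and 8.51% below. Of those above, 2, 1 and 0 stood over free RNA, since Gfap, Vim and Lcn2 on day 3 and Gfap on day 7 did not. Vim there was 12.7 CPM on day 3, where free RNA alone could give 23.3 CPM, and Lcn2 2.73 CPM, where it could give 3.09 CPM. Striatal projection neuron-like nuclei had 6 of 11 above on day 1, 2 of 9 on day 3 and 3 of 9 on day 7, beside 10.0%, 5.48% and 5.98% of all genes, and 0, 1 and 3 below, beside 5.46%, 7.15% and 8.77%. Of those above, 3, 0 and 1 stood over free RNA. Gfap and Vim did not on any day, with Gfap at 7.62, 17.9 and 9.21 CPM against 12.5, 25.7 and 17.0 CPM from free RNA and Vim at 7.11, 15.8 and 5.82 CPM against 15.6, 36.2 and 14.5 CPM, and neither did Cebpb on day 1. Many genes of this list also answer to other signals, so the count does not measure Stat3 activity.

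**Figure D4:**
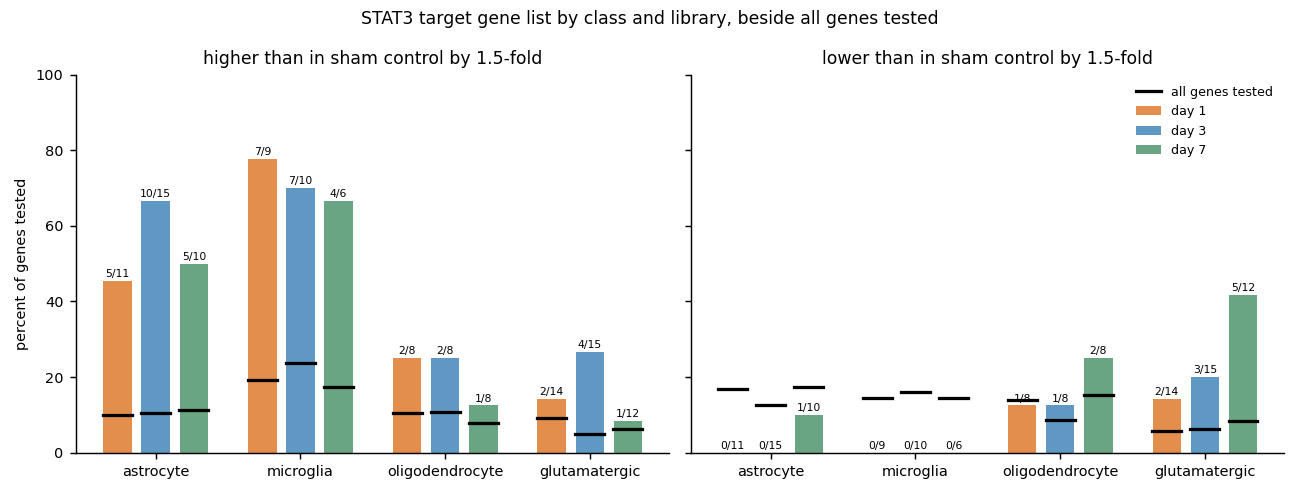
Percent of the tested Stat3 target genes (vertical axis) at least 1.5-fold above (left) or below (right) sham control in 4 classes on days 1, 3 and 7, with the count over each bar and the share of all genes tested as a black line. On day 3, 10 of 15 targets were above in astrocyte-like nuclei and 7 of 10 in microglia-like nuclei, where 10.6% and 23.8% of all genes were, while oligodendrocyte-like and glutamatergic neuron-like nuclei had 2 of 8 and 4 of 15. Of these day 3 targets 10, 5, 0 and 1 stood over the level that free RNA alone could give. Targets with few UMIs in sham control could be tested only where they were high, which can raise these counts.

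Across the 32 sums of 8 classes and 4 libraries, the members with the most similar patterns were Stat3 and Il6st (Pearson r = 0.871 on log2(CPM + 1)) and Stat3 and Lifr (r = 0.854). Among 13469 genes the pattern of Il6ra was most like those of Spi1 (r = 0.945), Fgd2 and Wdfy4, and that of Il6st most like Tor1aip1 (r = 0.944), Lpar6 and Ccnd3. Stat3 was most like Crlf3 (r = 0.943), Abca1 and Tcn2, Lifr most like Elf1 (r = 0.900), Acss1 and P2rx7, and Jak1 most like Acer3 (r = 0.929), Itga6 and Map3k14. The astrocyte-led members were most like other genes: Osmr like Lrig1 (r = 0.894), D030047H15Rik and Plcd4, and Cntfr like Arhgef12 (r = 0.879), Acsl3 and Dtna. Jak2 was most like Ppp2r2a (r = 0.897), Arpc1a and Sgk3, and Socs3 most like Rps2 (r = 0.832), Slc39a1 and Rps28. The points share libraries, depth and free RNA, so these values describe the pattern over classes and carry no p-value.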

How the data were processed

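Single-nucleus 3′ libraries (10x, version 3.1 chemistry) of 4 groups were used, 1 library per group. The authors aligned reads with STAR 2.7.3a in its single-cell mode to GRCm38 with GENCODE vM8, counted over whole genes, exons and introns together, collapsed UMIs with 1 mismatch and applied the filter of that mode for UMIs seen in several genes. The strand used is not given in the sources used here. The deposited values are raw UMI counts for every barcode, without normalization.

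From these counts, nuclei were called with an emptyDrops-type test against barcodes with at most 1000 UMIs (FDR 0.001, 10000 draws), checked on simulated data, and the 145 highest Scrublet scores of 7945 called barcodes were removed at 0.8% per 1000 nuclei. Libraries were integrated and clustered in Seurat 5.3.0 (R 4.3.3, sctransform 0.4.2, 30 components, resolution 0.8, 2978 features) and clusters named from 308 markers of 18 classes. The naming rule was changed once after the clusters were seen, so that glutamatergic and dentate granule markers were not set against each other.

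UMIs were summed per class and library and divided by the class total to give CPM, with exact Poisson intervals, exact Clopper-Pearson intervals for shares and exact conditional binomial intervals for ratios to sham control (scipy 1.17.1, 95%). A class needed 20 nuclei in every library to enter the counts, and a ratio 20 UMIs in the pair of sums. A 0 was replaced by a floor of 3 UMIs per class sum where a ratio is given as at least. As there is 1 library per group, no test between groups was run. Reads without replicates give counting error only. Free RNA was estimated per library from barcodes with at most 1000 UMIs and from markers that a class should lack, which gives an upper estimate.

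The members and lists were chosen with earlier results of these data known. All members are named. For each member the 3 genes with the highest Pearson correlation of log2(CPM + 1) over class sums are named, among genes with at least 200 UMIs, and from each list at most 4 genes per glial class, by size of the log2 ratio among those past 1.5-fold with an interval excluding 1, plus Gfap in astrocyte-like nuclei. The 11 other settings tried included TMM scaling in edgeR 4.0.16. A further 3, the marker sets for free RNA and the comparison of targets with free RNA were chosen after seeing the data. The label doubts stated in the report apply to every value. Of the ligand list, 1 gene is not reported here.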

Additional observations from a re-analysis of the deposited data

Results flagged for a closer look

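The droplets with at most 1000 UMIs, which hold free RNA and no called nucleus, carried members of the pathway at levels that differed from sham control, and they stood out as a signal in data outside the class sums. Socs3 in free RNA was 3.46 CPM in sham control (38 UMIs) and 13.7 CPM on day 1 (134 UMIs), a ratio of 3.955 (counting interval 2.74 to 5.83), and its ratio on day 3 was 1.761 (1.21 to 2.61). On day 7 the Socs3 ratio was 0.869, with an interval that included 1. Osmr in free RNA had a ratio of 2.535 on day 3 (1.72 to 3.84, from 32 to 143 UMIs) and of 1.781 on day 7 (1.14 to 2.84), while its day 1 ratio of 1.44 had an interval from 0.883 to 2.36. In astrocyte-like nuclei Osmr was highest on day 1, but the intervals of the days after MCAO overlapped there, so whether the order of days differed from that in free RNA was not tested. Each free RNA value comes from 1 library, and the cells from which this RNA came were not tested.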

How the results depend on the processing

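No paired analysis was possible because each group has 1 library. Of 146 ratios of members to sham control, 17 were above 1.5-fold and 7 below, beside 9.21% and 10.4% of the ratios of all genes. Subtracting free RNA in proportion to UMIs gave 28 and 15 (17.4% and 14.8% of all genes), and taking the same number of free UMIs from every nucleus, an alternative chosen after seeing the data, gave 28 and 13 (14.7% and 14.9%). With nuclei thinned to 1000 UMIs 26 of 139 were above and 30 below (20.6% and 21.7%), so the shares of all genes moved with those of the members. A minimum of 50 UMIs left 8 above and 6 below of 128 (5.34% and 6.34%), no minimum beyond 1 UMI in each sum gave 38 above and 12 below of 183 (16.7% and 16.4%), and a fold of 2 gave 6 and 2 (2.99% and 3.30%). TMM scaling gave 14 and 6 (9.27% and 10.2%). Among the ratios past 1.5-fold, the direction of 3 turned: Jak2 in astrocyte-like nuclei on day 7, with log2 ratios of 0.071 for the mean of nuclei and 0.28 after thinning, Jak2 in microglia-like nuclei on day 1, at -0.29 after thinning, and Jak1 in oligodendrocyte-like nuclei on day 7, at 0.34 after thinning. Ratios within 1.5-fold turned too, after thinning among others Il6ra in microglia-like nuclei on days 3 and 7, at -0.31 and -0.24, and Jak1 in astrocyte-like nuclei on day 3, at -0.13. The cause was not tested. Osmr in astrocyte-like nuclei kept its direction under every alternative run, at log2 ratios of 1.50 to 3.37 on day 1, 1.19 to 2.44 on day 3 and 1.09 to 2.45 on day 7, over 9 alternatives each. The class with the highest level changed for Socs3 and Lifr alone, in Socs3 to oligodendrocyte precursor cell-like nuclei after thinning or averaging nuclei and to astrocyte-like nuclei without integration or without the top nucleus, and in Lifr to astrocyte-like nuclei among nuclei with over 2000 UMIs. Depth limits Socs3 and Osmr most, with at most 23 UMIs in any glial class sum.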
